A study of Homo sapiens with 2 samples.

Results

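The nuclear genes of respiratory complex I were compared between untreated and dihydroartemisinin (DHA)-treated cells of a human pancreatic cancer line. All protein-coding rows whose symbol starts with NDUFA, NDUFB, NDUFC, NDUFS, NDUFV, NDUFAB or NDUFAF and a number were taken, which gave 48 of 58735 gene rows. They were divided into 37 subunits of the complex, 8 assembly factors (NDUFAF1 to NDUFAF8) and 3 other matches. The other matches are NDUFA4, which was named as a complex I subunit and is now placed in cytochrome c oxidase, its paralogue NDUFA4L2, and the readthrough gene NDUFC2-KCTD14. The cells are a highly metastatic derivative of SUIT-2, a pancreatic adenocarcinoma line, and each condition has 1 RNA-seq library, with the treatment labelled NC (untreated in the series design) or DHA. The sources used here give no dose, exposure time or vehicle. Both libraries share the cell line, and no other genotype or agent is named.

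Complex I is the entry point of the mitochondrial respiratory chain. It takes electrons from NADH through a flavin and a row of iron-sulfur clusters to ubiquinone and pumps protons across the inner membrane. Its matrix arm holds the N module, which oxidizes NADH, and the Q module, which reduces ubiquinone, while its membrane arm holds the proton pumps, built around proteins encoded by the mitochondrial genome. Assembly factors join these parts but are not in the finished enzyme. DHA is the active metabolite of the artemisinin antimalarials, which carry an iron-reactive endoperoxide.

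Depth was similar, with 15452609 counted reads untreated and 14521101 with DHA. Levels are given as CPM, the reads of a gene divided by the scaled library total and multiplied by 1000000. Epithelial identity was checked with 10 markers of ductal pancreatic cancer, with a summed level of 3419 CPM untreated and 1416 CPM with DHA. Of the 8 with 50 reads or more, 7 were lower by 2-fold or more and LCN2 was higher, where 10.3% and 6.72% of all 12064 genes with that many reads were. The protocol text names retina, but the photoreceptor genes SAG, CRX, GNAT1 and RCVRN had 0 reads in both libraries, and the 10 retina markers together had 2.40 and 1.03 CPM. The leukocyte genes PTPRC, CD3E and CD68 and the fibroblast genes COL1A2, COL3A1 and DCN also had 0 reads, while the 6 fibroblast markers together had 8.44 and 0.960 CPM and the 3 endothelial markers 18.3 and 3.91, nearly all from PECAM1 (280 and 54 reads). The part of these shifts in the values below was not tested. With 1 library for each condition no difference has a replicate check, and no p-value was computed.

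Complex I transcripts were slightly less abundant in the DHA library, and no single gene reached a large ratio. The 37 subunit genes together took 2033 CPM untreated and 1628 CPM with DHA, a ratio of 0.801 (95% counting interval 0.787 to 0.814). The 8 assembly factor genes took 224 and 167 CPM, a ratio of 0.744 (0.706 to 0.784). Of the 37 subunits, 34 reached 50 reads in 1 or both libraries, and 0 of these 34 differed by 2-fold or more in either direction. Fewer cells of a type and less RNA per cell cannot be told apart in such bulk samples. All 8 assembly factors had that many reads, and 0 were past 2-fold either way. Over the 12064 genes with at least 50 reads, 10.3% were lower and 6.72% higher by 2-fold or more under the same rule, which also asked that the counting interval of the ratio exclude 1.

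The shift lay in the direction of many small differences. Among the 34 subunits, 28 (82.4%) had a log2 ratio of DHA over untreated below 0, against 47.8% of all 12064 genes. The counting interval lay wholly below 1 for 24 (70.6%), against 35.5% of all genes, and wholly above 1 for 2 (NDUFA8 and NDUFS7), against 39.8%. It included 1 for the other 8. The median log2 ratio of the subunits was -0.34, with quartiles of -0.56 and -0.11, where the median over all genes was 0.04, with quartiles of -0.43 and 0.46. At 1.5-fold, 8 of 34 subunits (23.5%) were lower, which is near the 19.2% of all genes, and 0 were higher, against 18.9%. The 8 were NDUFA3, NDUFA11, NDUFC1, NDUFB1, NDUFB4, NDUFB5, NDUFB6 and NDUFB8. Over 11221 protein-coding genes the log2 ratio had a Pearson correlation of 0.08 and a Spearman correlation of 0.11 with gene length, given as a description since genes are not independent. After removal of a smooth trend on length 22 of the 34 subunits were below 0, with a median of -0.25, and all genes had 45.3% below 0 and a median of 0.07.

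**Figure D1:**
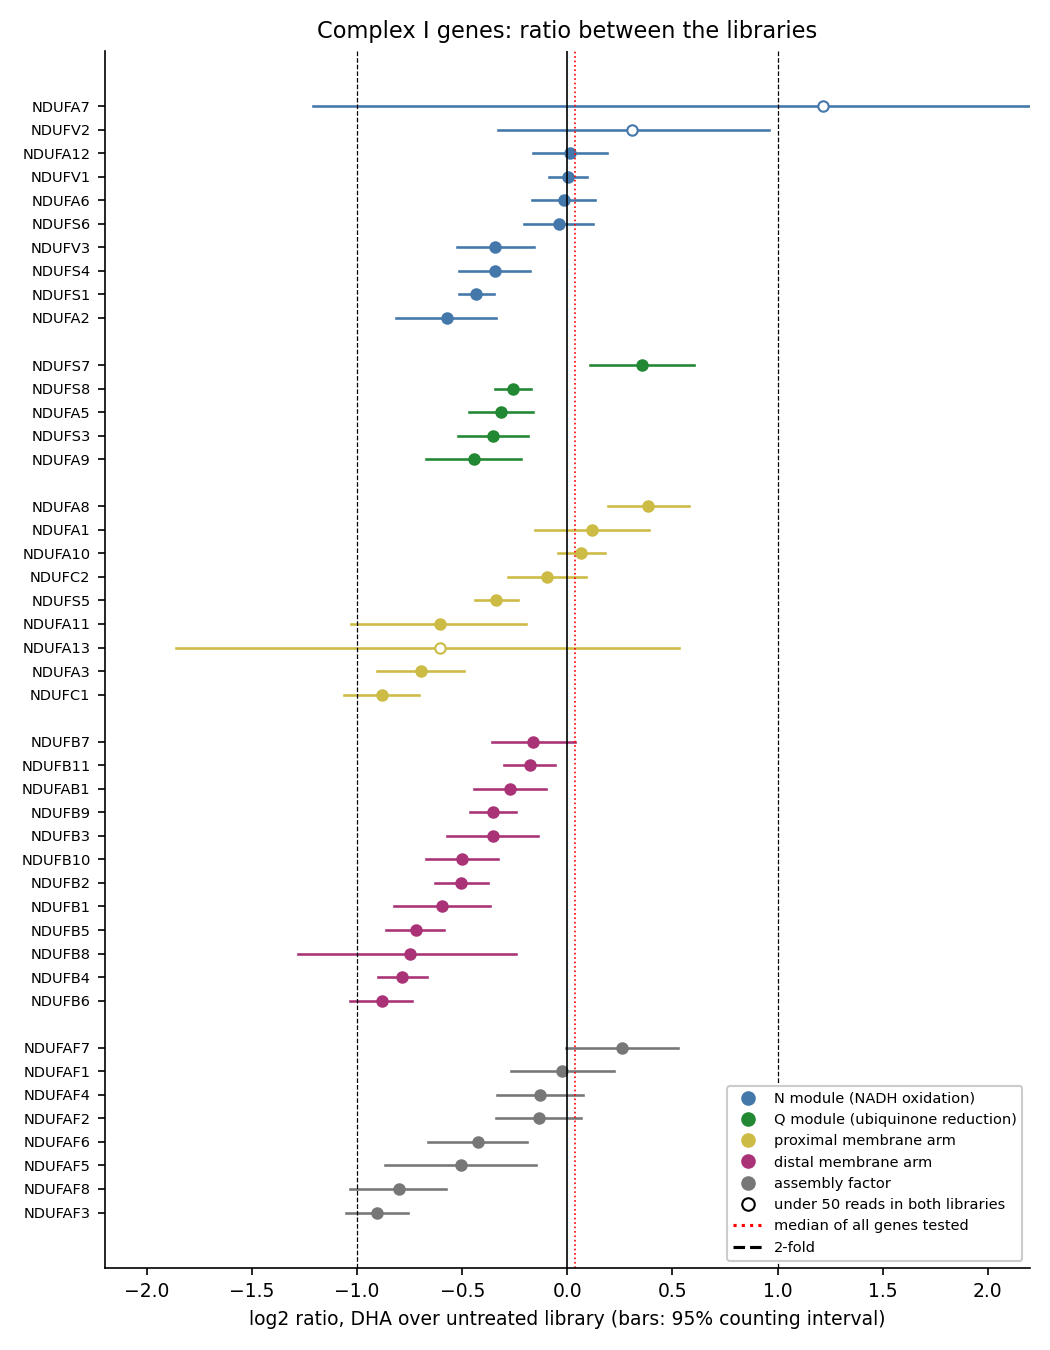
Log2 ratio of the DHA over the untreated library (horizontal axis) for the 8 assembly factor genes and all but 1 of the 37 subunit genes, grouped by module. Points are ratios, bars are 95% counting intervals, open points have fewer than 50 reads in both libraries, the dashed lines mark 2-fold and the dotted line is the median of all genes tested. All 12 genes of the distal membrane arm lie left of 0, as do 47.8% of all genes tested, and no filled point lies beyond 2-fold.

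The distal membrane arm, the end of the complex that holds the mitochondrially encoded pump proteins MT-ND4 and MT-ND5, had the lowest median of the 4 modules. Coordinates of genes are GRCh38 with GENCODE 29 names. The 12 nuclear genes of this arm, NDUFB1 to NDUFB11 and NDUFAB1, encode small membrane and peripheral subunits. Of these, 12 of 12 had a log2 ratio below 0, with a median of -0.50, against 47.8% below 0 among all genes tested. The interval lay below 1 for 11 of them, against 35.5% of all genes tested, and the exception was NDUFB7. NDUFB6 (ENSG00000165264, chr9:32552999-32573184, minus strand) had 1125 reads untreated and 577 with DHA, or 73.1 and 39.6 CPM, a log2 ratio of -0.88 (counting interval -1.03 to -0.74). NDUFB4 (ENSG00000065518, chr3:120596309-120602500, plus strand) had 1695 and 931 reads and a log2 ratio of -0.79 (-0.90 to -0.67). NDUFB5 had 1194 and 685 reads, with a log2 ratio of -0.72 (-0.86 to -0.59). Along with NDUFB8, which had only 91 and 51 reads, these had the lowest ratios of the module. NDUFB7, a subunit with cysteine pairs that form disulfide bonds, was highest with 462 and 391 reads and a log2 ratio of -0.16 (-0.36 to 0.04). NDUFAB1, the mitochondrial acyl carrier protein, which also serves fatty acid and lipoate synthesis, had 640 and 501 reads and a log2 ratio of -0.27 (-0.45 to -0.10). NDUFB8 had a log2 ratio of -0.75 (-1.28 to -0.25). The others lay between, NDUFB1 at -0.59, NDUFB2 and NDUFB10 at -0.50, NDUFB3 at -0.36, NDUFB9 at -0.35 and NDUFB11 at -0.18 on the log2 scale. With the length trend removed, 10 of 12 remained below 0, against 45.3% of all genes tested. The module median was then -0.38, while NDUFB7 and NDUFB11 had log2 ratios of 0.24 and 0.08. Of the exon length, 35.1% of NDUFB2 lies opposite BRAF (421 and 758 reads) or NDUFB2-AS1 (0 and 4 reads). For NDUFB11, 44.9% lies opposite RBM10 (648 and 1084 reads), and for NDUFB9 21.0% lies opposite MTSS1 and TATDN1. BRAF and RBM10 both had more reads in the DHA library. The difference between modules was not tested.

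Genes of the proximal membrane arm had ratios on both sides of 0. Of 8 with at least 50 reads 5 lay below 0, against 47.8% of all genes tested. The median log2 ratio was -0.22. It became 0.03 after removal of the length trend and -0.34 with a minimum of either 10 or 500 reads. NDUFC1 (ENSG00000109390, chr4:139266880-139302551, minus strand), a single-span membrane subunit, had 765 reads untreated and 393 with DHA and the log2 ratio -0.88 (-1.06 to -0.70), while 18.5% of its exon length is shared on its strand with MGARP (113 and 26 reads). NDUFA3 had 527 and 308 reads and -0.70 (-0.90 to -0.49) on the same scale. NDUFA8 (ENSG00000119421, chr9:122144058-122159819, minus strand), another subunit with disulfide-bonded cysteine pairs, had 401 and 496 reads and the highest log2 ratio of all subunits with at least 50 reads, 0.39 (0.19 to 0.58). The intervals of NDUFC1 and NDUFA8 did not overlap, but these were taken as the lowest and highest of the module, which favours a gap. NDUFS5, which also has such cysteine pairs, had 1871 and 1402 reads and a log2 ratio of -0.34 (-0.44 to -0.24), but 0.06 with the length trend removed. NDUFA10, which resembles a nucleoside kinase, had 1285 and 1274 reads and a log2 ratio of 0.07 (-0.05 to 0.18). Log2 ratios of NDUFA11, NDUFC2 and NDUFA1 were -0.61, -0.10 and 0.12. For NDUFA1 44.5% of the exon length lies opposite RNF113A. The strand setting is not given, and if counting ignored strand, the reads in the overlap cannot be told apart.

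In the matrix arm the catalytic core subunits had small log2 ratios, between -0.43 and 0.35 for the 6 with at least 50 reads. NDUFV1 (ENSG00000167792, chr11:67605653-67612554, plus strand), the subunit that binds NADH and the flavin, had 1973 reads untreated and 1873 with DHA, which is 128 CPM in each, with a log2 ratio of 0.00 (-0.09 to 0.10), which was -0.03 with DESeq2 size factors. NDUFS1 (ENSG00000023228, chr2:206114817-206159603, minus strand), the largest iron-sulfur subunit of the N module, had 2807 and 1969 reads and a log2 ratio of -0.43 (-0.52 to -0.35). The intervals of these partners in the N module did not overlap. However, 11.7% of the exon length of NDUFS1 lies opposite EEF1B2 (5029 and 3066 reads) or AC007383.3 (0 reads in both libraries). NDUFV2, the other flavoprotein-fragment subunit, had only 40 and 47 reads and a log2 ratio of 0.31 (-0.33 to 0.96). A difference was not detectable with so few counted reads. Of its coding bases, 84.7% are shared with AP005263.1 on its strand, so its level is uncertain.

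In the core of the Q module, NDUFS7 stood apart from NDUFS3 and NDUFS8. NDUFS3 had 701 and 520 reads, with a log2 ratio of -0.35 (-0.52 to -0.19). NDUFS8, an iron-sulfur subunit, had 2556 and 2021 reads, with a log2 ratio of -0.26 (-0.34 to -0.18). NDUFS7 (ENSG00000115286, chr19:1383527-1395589, plus strand), which carries the last iron-sulfur cluster before ubiquinone, had 252 and 305 reads and a log2 ratio of 0.35 (0.11 to 0.60). Of the exon length of NDUFS7, 49.1% lies opposite the antisense genes AC005329.1 and AC005329.3, which had 1 and 0 reads and 0 and 2 reads. The accessory subunits of this module, NDUFA5 and NDUFA9, had log2 ratios of -0.31 and -0.44. Of the 6 genes of the module 5 were below 0, with a median of -0.32, against 47.8% below 0 among all genes tested.

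Accessory subunits of the N module included genes near 0 and genes with intervals wholly below it. NDUFA12, NDUFA6 and NDUFS6, a zinc-binding subunit, had log2 ratios of 0.01, -0.02 and -0.04, each with an interval that included 0, and the sign of all 3 turned under another scaling or with the length trend removed. NDUFS4, a known site of mutation in Leigh syndrome, had 676 and 504 reads and a log2 ratio of -0.34 (-0.51 to -0.18), and NDUFV3 had the same ratio. NDUFA2, with a thioredoxin-like fold, was lowest in the module with 376 and 239 reads and a log2 ratio of -0.57 (-0.81 to -0.34). The N module had a median of -0.19 over 8 genes, -0.02 with the length trend removed and -0.04 over 7 genes with a minimum of 500 reads or 9 genes with a minimum of 10.

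Assembly factors lay mostly below 0 too, with 7 of 8 log2 ratios below 0, against 47.8% of all genes tested. Their median was -0.28. With the length trend removed, 4 of 8 were below 0, against 45.3% of all genes tested. The median was then -0.22, with NDUFAF1, NDUFAF2 and NDUFAF4 at 0.20, 0.18 and 0.02. In the main setting the interval lay below 1 for 4 of the 8, against 35.5% of all genes tested. It lay above 1 for 0, against 39.8%. NDUFAF3 (ENSG00000178057, chr3:49020459-49023495, plus strand), which acts early on the Q module, had 1107 reads untreated and 560 with DHA, the lowest log2 ratio of all subunits and assembly factors with at least 50 reads, -0.90 (-1.05 to -0.76). Its partner NDUFAF4 had 426 and 369 reads and a log2 ratio of -0.13 (-0.33 to 0.08). The intervals of this pair did not overlap. Of the exon length of NDUFAF3, 21.7% lies opposite DALRD3, which itself had 423 and 210 reads. The strand setting is not given, and if counting ignored strand, the reads in the overlap cannot be told apart. Without NDUFAF3 the summed ratio of the other 7 assembly factors was 0.843 rather than 0.744.

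NDUFAF8 and NDUFAF5 act together in the hydroxylation of NDUFS7. NDUFAF8 (ENSG00000224877, chr17:81239239-81241281, plus strand) had 448 and 243 reads and a log2 ratio of -0.80 (-1.04 to -0.58), and NDUFAF5, the hydroxylase, 165 and 110 reads and -0.50 (-0.87 to -0.15). NDUFAF7, an arginine methyltransferase, had 225 and 255 reads and the only log2 ratio above 0 among the 8, 0.26, with a lower bound just under 0 and an upper bound of 0.52. NDUFAF6 had 363 and 256 reads and a log2 ratio of -0.42 (-0.66 to -0.19). NDUFAF1, of the complex that builds the membrane arm, had 290 and 270 reads and a log2 ratio of -0.02 (-0.27 to 0.22). NDUFAF2, a paralogue of NDUFA12 that takes its place during assembly, had 431 and 371 reads and -0.14 (-0.34 to 0.07), and NDUFA12 had 553 and 528 reads and 0.01 (-0.16 to 0.19), so the intervals of these paralogues overlapped. At 1.5-fold, 2 of the 8 were lower, NDUFAF3 and NDUFAF8, where 19.2% of all genes were.

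The other matches differed from each other. NDUFA4 had 3020 reads untreated and 2063 with DHA and a log2 ratio of -0.47 (-0.55 to -0.39). NDUFA4L2, known to be induced in hypoxia, had 0 reads untreated and 12 with DHA. This was 4.22-fold higher with the untreated library set at the floor of 3 reads, which is 0.195 CPM. The lower bound of the counting interval was 2.93-fold. At 0.823 CPM in the DHA library NDUFA4L2 stayed below the minimum of 50 reads, and its level was far under that of NDUFA4 at 142 CPM. In RPKM, NDUFA4 had 55.2 and 39.8 and NDUFA4L2 0 and 0.293. The readthrough gene NDUFC2-KCTD14 had 0 reads in both libraries, and 100% of its exon length is shared on its strand with NDUFC2 and KCTD14, so this 0 sets no limit on its level.

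Promoters were examined because factors that control many respiratory genes, NRF1, the ETS factor GABP and YY1, have known binding motifs. RefSeq promoter windows on GRCh38.p14, from 250 bases before to 50 after a start site, matched 39 of the 45 subunit and assembly factor genes. Those without a match included NDUFS5, NDUFB5, NDUFB9, NDUFC2 and NDUFAF6. Windows are shown 5′ to 3′ on the gene's strand, with motif matches in capitals, for NDUFA8 and NDUFS7, the only subunits with an interval above 1, for NDUFB4 and NDUFAF8, which have matches and low ratios, and for NDUFAF3, which has the lowest ratio and no match. They lie at chr9:122159730-122160029 (minus strand), chr3:120596086-120596385 (plus), chr19:1383657-1383956 (plus), chr17:81239061-81239360 (plus) and chr3:49020202-49020501 (plus) for NDUFA8, NDUFB4, NDUFS7, NDUFAF8 and NDUFAF3.
NDUFA8: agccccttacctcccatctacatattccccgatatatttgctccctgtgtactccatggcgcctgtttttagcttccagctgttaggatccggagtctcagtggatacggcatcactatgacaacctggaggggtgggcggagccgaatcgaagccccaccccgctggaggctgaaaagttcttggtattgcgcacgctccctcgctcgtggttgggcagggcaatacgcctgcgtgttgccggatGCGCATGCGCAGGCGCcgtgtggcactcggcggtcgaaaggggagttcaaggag
NDUFB4: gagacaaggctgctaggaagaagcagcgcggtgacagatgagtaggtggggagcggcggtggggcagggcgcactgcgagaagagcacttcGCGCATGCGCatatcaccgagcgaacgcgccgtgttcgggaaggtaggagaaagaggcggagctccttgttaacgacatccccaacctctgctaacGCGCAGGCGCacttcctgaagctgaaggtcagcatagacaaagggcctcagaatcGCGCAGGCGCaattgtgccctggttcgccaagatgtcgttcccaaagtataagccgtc
NDUFS7: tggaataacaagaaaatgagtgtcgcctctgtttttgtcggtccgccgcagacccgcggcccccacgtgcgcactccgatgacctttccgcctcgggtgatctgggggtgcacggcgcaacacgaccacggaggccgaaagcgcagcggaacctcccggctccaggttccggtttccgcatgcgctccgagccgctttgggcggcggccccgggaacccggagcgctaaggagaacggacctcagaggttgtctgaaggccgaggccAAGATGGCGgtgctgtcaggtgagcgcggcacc
NDUFAF8: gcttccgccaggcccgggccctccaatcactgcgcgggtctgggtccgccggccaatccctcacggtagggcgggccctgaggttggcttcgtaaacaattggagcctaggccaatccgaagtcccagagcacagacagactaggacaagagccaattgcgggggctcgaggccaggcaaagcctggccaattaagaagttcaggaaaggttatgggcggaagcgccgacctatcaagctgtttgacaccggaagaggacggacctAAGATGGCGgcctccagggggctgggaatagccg
NDUFAF3: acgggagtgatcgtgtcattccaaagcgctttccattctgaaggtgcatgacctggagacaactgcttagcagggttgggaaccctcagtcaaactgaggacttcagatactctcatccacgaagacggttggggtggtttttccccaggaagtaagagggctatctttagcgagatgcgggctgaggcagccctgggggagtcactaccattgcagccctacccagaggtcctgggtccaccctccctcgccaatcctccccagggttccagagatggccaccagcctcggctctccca
Both strands were searched for the letters GCGCA, any base, then GCGC (NRF1), CCGGAAGT (ETS) and AAGATGGCG (YY1), and matches may overlap, as the 2 in NDUFA8 do. A match describes the letters and was not tested as a binding site.

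The NRF1 letters were found in 7 of 39 complex I promoters (17.9%), against 5.78% of all 35116 windows. A single window was used for each complex I gene, the one nearest its annotated start. The 35116 include every window of the reference, so the shares compared here are not like for like, and enrichment was not tested. The YY1 letters were found in 6 (15.4%), against 1.75%, and the ETS letters in 2 (5.13%), against 4.14%. The genes with NRF1 letters were NDUFB4, NDUFA3, NDUFA11, NDUFAF5, NDUFA9, NDUFA12 and NDUFA8, and their log2 ratios ran from -0.79 to 0.39. The genes with YY1 letters also lay on both sides of 0, with NDUFAF8 at -0.80 and NDUFS7 at 0.35. The remaining ones were NDUFA9, NDUFS4, NDUFA6 and NDUFA7, and the ETS letters were in NDUFS1 and NDUFA13. NRF1 itself had 382 and 337 reads and a log2 ratio of -0.10 (-0.32 to 0.11), and YY1 had 3313 and 2802 reads and -0.16 (-0.24 to -0.09).

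Levels per length differed far more between subunits than between libraries. In RPKM (CPM divided by the exon length in kilobases), the median subunit had 19.3 untreated and 13.9 with DHA. NDUFS5 was highest at 222 and 176, followed in the untreated library by NDUFB4 at 58.3, NDUFB7 at 56.5, NDUFB11 at 54.5 and NDUFB6 at 52.7. NDUFA7, NDUFA13 and NDUFV2 were lowest, with 0.0919, 0.432 and 0.958 untreated and 0.243, 0.279 and 1.19 with DHA. They are the 3 subunits under 50 reads, with 2 and 5, 18 and 11, and 40 and 47 reads. NDUFA13, also known as GRIM-19, is needed for assembly of the enzyme.

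**Figure D2:**
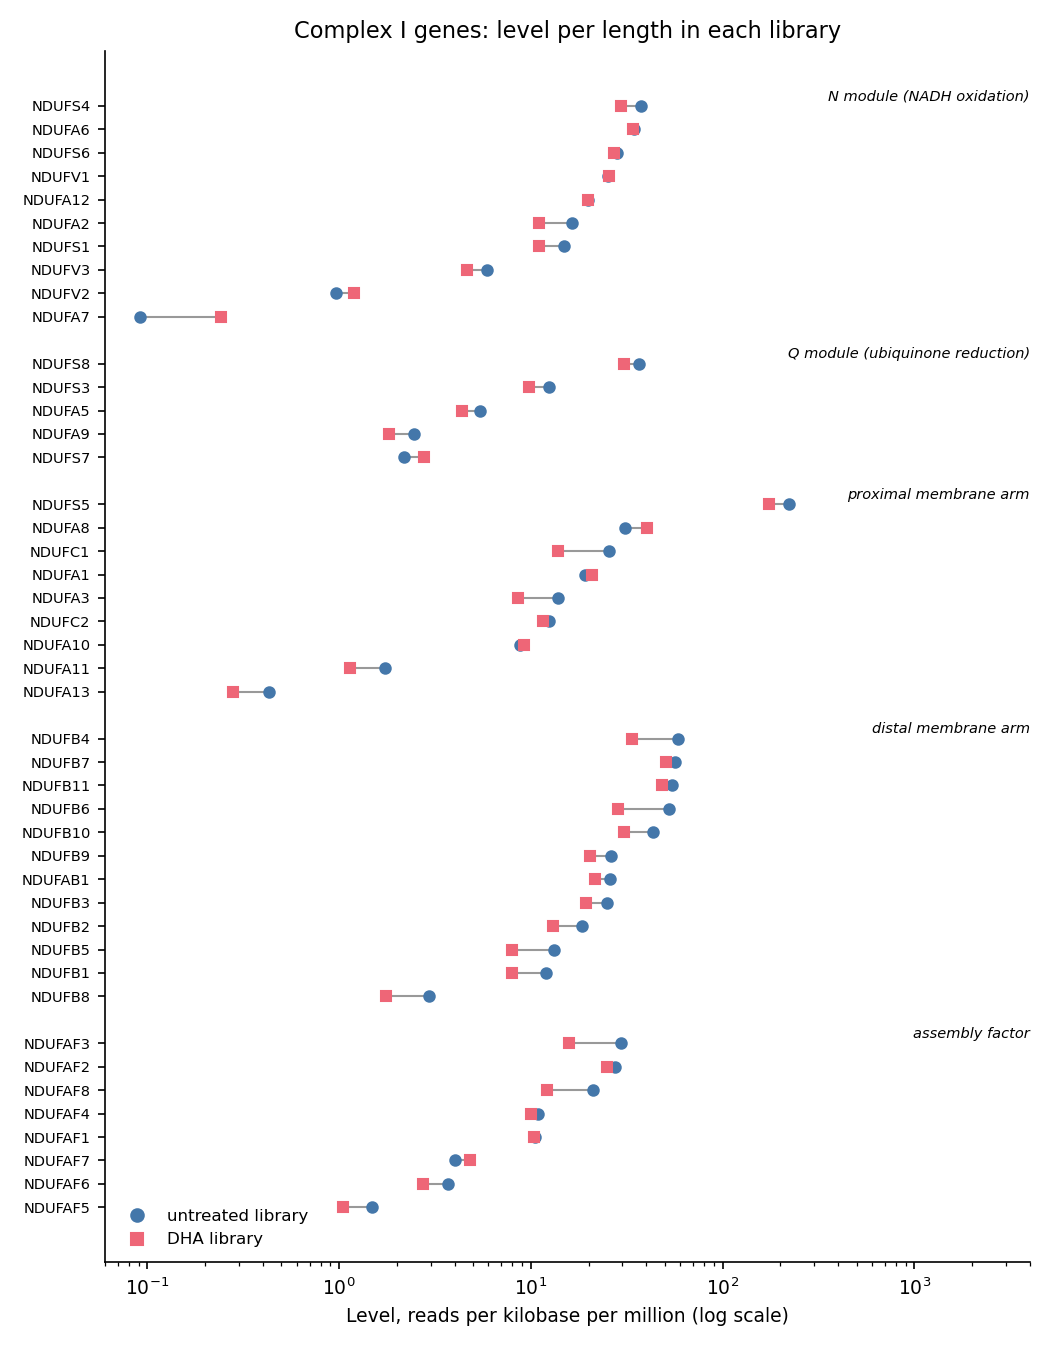
Level of the 8 assembly factor genes and all but 1 of the 37 subunit genes in RPKM (log scale) in the untreated (circles) and DHA (squares) library, ordered by the untreated level within each module. Lines join the libraries, and the distance between genes, from 0.0919 for NDUFA7 to 222 for NDUFS5, is far larger than the distance within a gene.

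The low levels went together with sharing of coding sequence. Of the 37 subunits, 7 share coding bases with another gene annotated on the same strand, and 6 of these 7 were among the 7 lowest levels per length in each library. Their median was 1.73 untreated and 1.19 with DHA, against 25.5 and 20.6 RPKM for the 30 others. Shared coding bases made up 85.2% for NDUFB8, 84.7% for NDUFV2, 78.3% for NDUFA7, 67.9% for NDUFA9, 55.2% for NDUFA13 and 36.9% for NDUFA11. The overlapping genes AL133352.1 (NDUFB8), AP005263.1 (NDUFV2), AC010323.1 (NDUFA7), AC005832.4 (NDUFA9) and AC024592.3 (NDUFA11) all had 0 reads in both libraries. AC005833.1, which also overlaps NDUFA9, had 1 and 0 reads. Those overlapping NDUFA13 (18 and 11 reads) had reads of their own, 13 and 17 for AC011448.1 and 8 and 8 for YJEFN3. NDUFC2 shares 76.9% with NDUFC2-KCTD14 and was the exception, at 12.4 and 11.6. How the counting treated reads in shared exons is not given in the sources used here, so levels of these genes are uncertain. Without the 6 subunits that share over 50% of their coding bases, 25 of 31 subunits had a log2 ratio below 0, and the median was again -0.34.

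**Figure D3:**
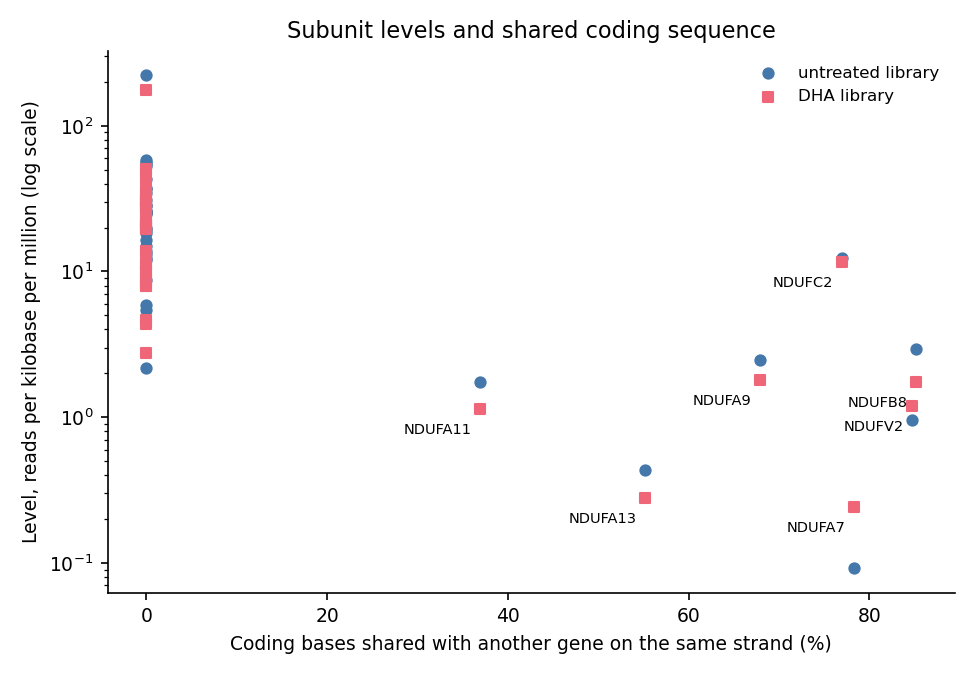
Level of the 37 subunit genes in RPKM (vertical axis, log scale) against the percentage of coding bases shared with another gene on the same strand (horizontal axis), in the untreated (circles) and DHA (squares) library. All genes with shared coding bases are named, and 6 of these 7 lie at or below 2.96.

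Processed pseudogenes named after members took few reads. Of 59 pseudogene rows, 13 had at least 1 read, with 41 reads untreated and 29 with DHA in all.

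Other genes of the pathway were taken from lists. The 7 subunits encoded by the mitochondrial genome form the pumping core of the membrane arm. All 7 lay below 0 on the log2 ratio scale (median -0.71), against 47.8% of all genes tested. Together they had 442033 reads untreated and 267419 with DHA, a ratio of 0.639 (0.636 to 0.642). MT-ND3, MT-ND6 and MT-ND5 had the lowest, -0.98 (-1.02 to -0.94), -0.78 and -0.75, and MT-ND2 the highest, -0.28, which was 0.03 with the length trend removed. MT-ND3 passed 2-fold with DESeq2 size factors (-1.02) and upper-quartile scaling (-1.05).

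Among 12 assembly genes not named NDUFAF, 2 were lower by 2-fold or more and 0 higher, near the 10.3% and 6.72% of all genes tested, and the median log2 ratio was -0.32. DMAC1, a factor for the distal membrane arm, had 496 reads untreated and 197 with DHA and a log2 ratio of -1.25 (-1.50 to -1.01). TMEM186, of the membrane arm assembly complex with NDUFAF1, had 96 and 38 reads and also -1.25 (-1.84 to -0.70), with 30.6% of its exon length opposite another gene. NUBPL, which delivers iron-sulfur clusters to complex I, had 293 and 150 reads and -0.88 (-1.18 to -0.60). ACAD9, another member of the NDUFAF1 complex, had -0.70, whereas ECSIT of the same complex had 0.15 (-0.05 to 0.35) and TMEM70, which acts on the membrane arm, 0.16 (0.04 to 0.27).

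Cofactor genes had no common direction. Of 16 iron-sulfur and flavin genes, 14 had at least 50 reads. Of these 14, 7 were below 0, against 47.8% of all genes tested, and the median was 0.02. By 2-fold or more 1 was lower and 0 higher, against 10.3% and 6.72% of all genes tested. BOLA3, which acts late in cluster delivery, had a log2 ratio of -0.75 (-0.96 to -0.54), and IBA57, a cluster assembly factor, had 0.69 (0.48 to 0.90). Among 11 regulators of mitochondrial biogenesis 10 had enough reads, 0 passed 2-fold, and the median was -0.07. The coactivator gene PPARGC1B had a log2 ratio of -0.62 (-0.93 to -0.32), and the GABP subunit genes GABPB1 and GABPA had 0.40 and 0.24.

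Other enzymes that pass electrons to ubiquinone were mostly below 0 as well, with a median of -0.33. Of the 12 genes with at least 50 reads 10 (83.3%) lay below 0, against 47.8% of all genes tested. The 4 subunit genes of complex II are among the 12, all below 0, and are counted again with the other respiratory complexes. The choline dehydrogenase gene CHDH had 571 and 94 reads and a log2 ratio of -2.52 (-2.85 to -2.21), and the gene of electron transfer flavoprotein beta, ETFB, had -0.91. AIFM2, which encodes the ubiquinone reductase FSP1, was 2.30-fold higher, with 820 and 1785 reads and a log2 interval of 1.08 to 1.32.

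The nuclear subunit genes of the other respiratory complexes gave similar values. Of 40 such genes, NDUFA4 among them, 38 lay below 0 on the log2 ratio scale (median -0.38), against 47.8% of all genes tested. Of the 40, 1 was lower by 2-fold or more, against 10.3% of all genes tested, the ATP synthase gene ATP5PO at -1.11 (-1.33 to -0.90). It shares 62.6% of its coding bases with another gene on its strand. ATP5F1A and ATP5ME, also of ATP synthase, followed at -0.81 and -0.79. Medians were -0.23 for complex II, -0.35 for complex III, -0.12 for complex IV and -0.60 for ATP synthase, so the complex I subunits at -0.34 lay within the range of the others.

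**Figure D4:**
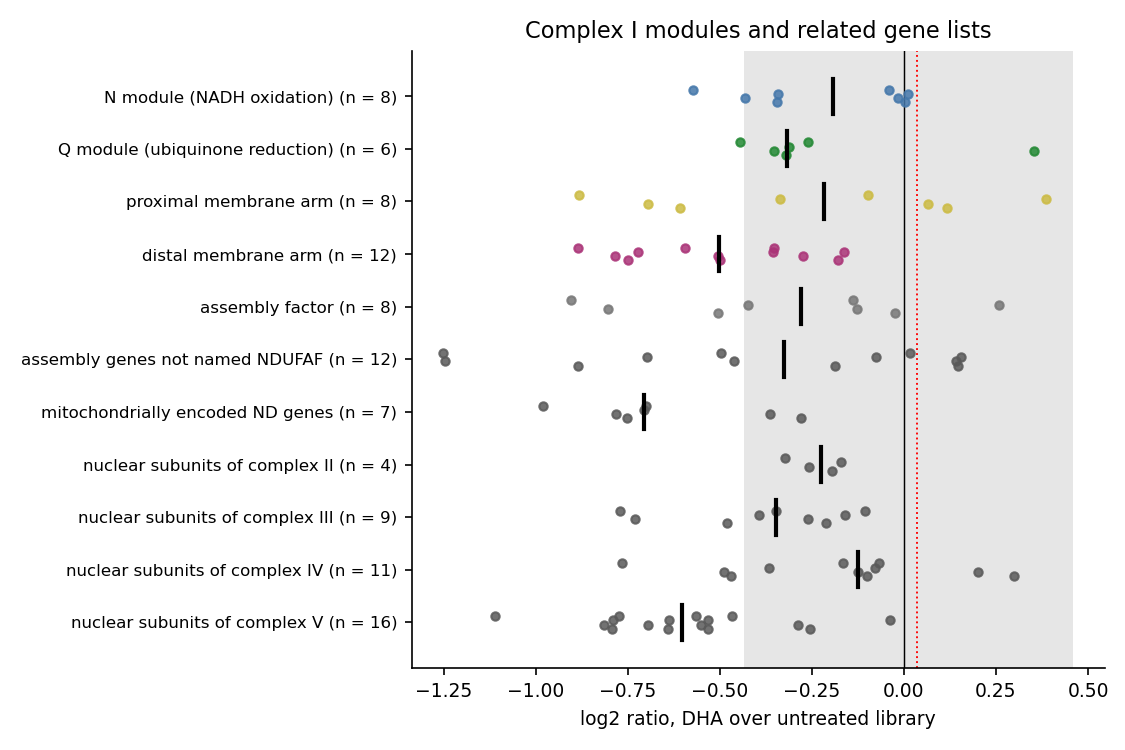
Log2 ratio of the DHA over the untreated library for genes with at least 50 reads, by complex I module and for the lists of other assembly genes, mitochondrially encoded genes and complexes II to V. Each point is a gene, black bars are medians, the grey band spans the quartiles of all genes tested, from -0.43 to 0.46, and the dotted line is their median of 0.04. Medians of the plotted groups lie below 0, lowest for the mitochondrially encoded genes at -0.71.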

How the data were processed

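Per the labels' protocols, RNA came from a Trizol extraction and an Illumina TruSeq kit served for library construction. The authors deposited whole-number read counts per gene for 2 libraries and a gene length in bases. All 58735 rows had the names, coordinates and lengths of GENCODE 29 (GRCh38), although the submitters' processing notes list a mouse build. The aligner, counting tool and strand setting were not given in the sources used here.

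Counts were scaled by TMM (edgeR 4.0.16, R 4.3.3), and ratios were taken after adding 0.5 reads. Intervals are exact Clopper-Pearson 95% intervals and cover counting error only. Calls needed 50 or more reads in 1 library, a difference of 2-fold or more and an interval without 1. This size rule was tested on simulated data. A count of 0 allows up to 3 reads, or 0.195 (untreated) and 0.206 (DHA) CPM. Exon sharing came from GENCODE 29, and trends were removed with lowess (statsmodels 0.14.6). Alternatives covered scaling (total reads, DESeq2 1.42.0, upper quartile), minimums, pseudocount, fold, interval, trends and shared exons. All members but 1 core subunit were named; that subunit and some listed genes are not reported here by name, but stay in the counts, sums and medians. In full were given assembly factors, the other core subunits, the extremes of each module, paralogue pairs and members under 50 reads. The extremes of each list were given among the genes that are named. Others were chosen after their values were seen. The checks of shared bases, promoter letters, modules and interval counts were added after the data had been looked at. Members and lists were chosen with earlier results of these data known.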

Additional observations from a re-analysis of the deposited data

Results flagged for a closer look

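The pseudogene NDUFA5P11, outside the set of protein-coding genes, had 2 reads untreated and 14 with DHA, 6.13-fold higher (interval 1.70 to 67.0). It was singled out because the interval lay above 1, the only such case among the 59 pseudogene rows. In the other direction, intervals lay wholly below 1 for NDUFB4P12 (21 and 5 reads, 0.0741 to 0.685) and NDUFV2P1 (8 and 1 reads, 0.00298 to 0.985). NDUFA5P11, NDUFB4P12 and NDUFV2P1 were all under the minimum of reads used for calls. NDUFA5 itself had 823 and 627 reads.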

How the results depend on the processing

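No paired analysis was possible because each condition has 1 library. Leaving out a library was not possible for the same reason. Over all alternatives except the lower fold, 0 subunits and 0 assembly factors were at least 2-fold lower or higher. At 1.5-fold 8 subunits and 2 assembly factors were lower. The subunit median stayed below 0, between -0.41 and -0.25, and 21 to 30 subunits had log2 ratios below 0. The summed subunit ratio of 0.801 was 0.779 with DESeq2 size factors and 0.765 with upper-quartile scaling. For the assembly factors, 4 of 8 were below 0 with the length trend removed, and again 4 when a GC trend was taken out too, against 7, and the cause was not tested. A minimum of 500 reads left only 1 of them, NDUFAF3, with 1 log2 ratio below 0, 1 interval below 1 and a median of -0.90. Their summed ratio was 0.843 without genes that have over 20% of exon length opposite another gene, which removes NDUFAF3. The GC, mitochondrial scaling, coding-share and opposite-strand alternatives, and all counts of intervals and module medians, were chosen after seeing the data. GC content came from the longest transcript, since no genome was used. At 40 and 47 reads, as for NDUFV2, the interval spans -0.33 to 0.96 on the log2 scale, which limits what the least-covered subunits can show.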
